A study of Drosophila melanogaster with 6 samples.

Results

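The genes described are the cytosolic ribosomal protein genes of Drosophila melanogaster, the genes that encode the protein components of the ribosome of the cytosol. Its genes were taken by symbol, as every gene whose symbol starts with RpL or RpS and a digit, plus RpLP0, RpLP1, RpLP2 and sta. No expression value enters that rule, but the family was chosen with earlier results of these data known. The rule found 92 of the 17476 genes counted, 53 of the large (60S) subunit and 39 of the small (40S) subunit. Of these, 83 passed the filter on low counts and were tested, 49 of the large and 34 of the small subunit. The other 9 never had more than 11 counts in a library and are described with their paralogs.

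Counts came from 6 RNA-seq libraries of polyadenylated RNA from whole, hand-dissected wings of flies aged 3 days, read from both fragment ends. There were 3 libraries from Poxn mutants, which carried the allele Poxn 70 and whose wings lack chemosensory sensilla, and 3 from the control line, w1118 Canton-S. The methods state that all lines were backcrossed to this w1118 Canton-S stock, so both genotypes shared its background and its w1118 allele, and that replicates were collected independently. They give 8000 wings of 4000 flies per library, a figure that does not match the total number of wings in the same paper. The sexes were not given in the labels. In bulk RNA of a whole wing, fewer cells of a type and less RNA per cell cannot be told apart.

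Ribosomal proteins assemble with ribosomal RNA, mostly in the nucleolus, into the 2 subunits that translate mRNA, and the small subunit decodes while the large subunit forms peptide bonds. The subunits need their proteins in fixed proportions. Because a cell makes very many ribosomes, these genes are among its most highly transcribed, and in animals their mRNAs share a pyrimidine-rich 5′ end through which the Tor pathway controls their translation. In Drosophila, loss of 1 copy of many of them gives the Minute phenotype of slow growth and short, thin bristles. Many encode very short proteins, so that the family holds some of the shortest mRNAs of the fly.

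Libraries differed within and between genotypes in ways that bear on every value below. The transcript of Poxn itself had 92, 86 and 85 counts in the libraries labelled Poxn 1 to 3, against 0, 6 and 3 in those labelled control 1 to 3, so the mutated gene was higher in the libraries that carry its name, and every direction below follows the labels. Sensory genes were looked up after the main results, and of 46 tested Gr, Ir, ppk and Obp genes 12 were called lower (4.95% of all tested genes) and 3 higher (2.69%) in the Poxn-labelled libraries, a genotype whose wings lack taste sensilla. Transcripts of ppk23, a channel subunit of pheromone-sensing taste neurons, had 1, 0 and 0 counts in Poxn 1 to 3, against 272, 195 and 890 in control 1 to 3 (edgeR adjusted p = 0.000373). Its partners ppk25 and ppk29 were also called lower, and ppk26, a channel subunit of mechanosensory neurons, had 1328, 2372 and 1849 counts in Poxn 1 to 3, against 19, 18 and 168 in control 1 to 3 (edgeR adjusted p = 0.00954). The part of the gene that the allele removes is not given in the sources used here. Counts on genes ran between 14021115 and 16182811 in the Poxn-labelled libraries and between 10074860 and 14269486 in the control-labelled ones. The trimmed mean of M values (TMM) factors, by which edgeR corrects library sizes, were 1.76, 1.86 and 1.86 for Poxn 1 to 3 and 0.246, 0.522 and 1.28 for control 1 to 3. All 5 wing markers were detected in every library, and their summed CPM (counts scaled to a common library size, here the TMM-corrected one) was between 213 and 219 in the Poxn-labelled libraries and between 184 and 346 in the control-labelled ones. Scaled to the uncorrected sum of counts on genes, it was between 378 and 408 in the Poxn-labelled libraries and between 49.5 and 235 in the control-labelled ones. Among the 4 male accessory gland markers the summed CPM was 149 in Poxn 3 and between 0.761 and 3.14 in the other 5 libraries. The 4 hemocyte markers summed to between 14.8 and 25.6 CPM in the Poxn-labelled libraries and between 24.1 and 68.3 CPM in the control-labelled ones. With the uncorrected sums the hemocyte values were between 27.6 and 45.0 in the Poxn-labelled libraries and between 10.3 and 35.6 in the control-labelled ones. Marker levels thus depended on the scaling. The part of other cell types in the results below was not tested.

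Ribosomal protein mRNAs took a smaller share of the library in the Poxn-labelled wings than in the control-labelled wings. Together the 92 genes held 9.49%, 9.07% and 8.40% of the counts on genes in Poxn 1 to 3, against 13.1%, 17.9% and 12.5% in control 1 to 3. The highest Poxn-labelled library was thus below the lowest control-labelled one, and the means were 8.99% ± 0.549 in the Poxn-labelled and 14.5% ± 2.98 in the control-labelled libraries (SD, n = 3 each). This share needs no scaling factor, but it depends on all other genes in the library. With 3 libraries against 3, an exact permutation test of 1 value cannot give a p below 0.1. When the 50 most abundant genes outside the family were left out of the total, the share averaged 12.5% ± 0.815 in the Poxn-labelled libraries and 28.8% ± 9.29 in the control-labelled ones.

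By transcript length, the difference was −1.08 percentage points, Poxn minus control, for short transcripts, −3.48 for intermediate and −0.96 for long ones. Genes whose longest annotated transcript is under 600 nt held 0.682% ± 0.0787 of the counts on genes in the Poxn-labelled libraries and 1.76% ± 0.709 in the control-labelled ones (SD, n = 3 each). Genes of 600 nt to under 1000 nt held 4.23% ± 0.298 in the Poxn-labelled libraries and 7.71% ± 1.10 in the control-labelled ones. In both classes the libraries of the genotypes did not overlap. Genes of 1000 nt or more held 4.07% ± 0.246 in the Poxn-labelled libraries and 5.03% ± 1.28 in the control-labelled ones, and here the libraries overlapped, because control 1 had 4.04%. Genes outside the family under 600 nt held 5.91% ± 0.652 in the Poxn-labelled libraries and 21.1% ± 7.16 in the control-labelled ones. Those of 1000 nt or more held 68.2% ± 1.67 and 41.1% ± 7.35. A smaller share of short transcripts in the Poxn-labelled libraries was thus not particular to the family.

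**Figure D1:**
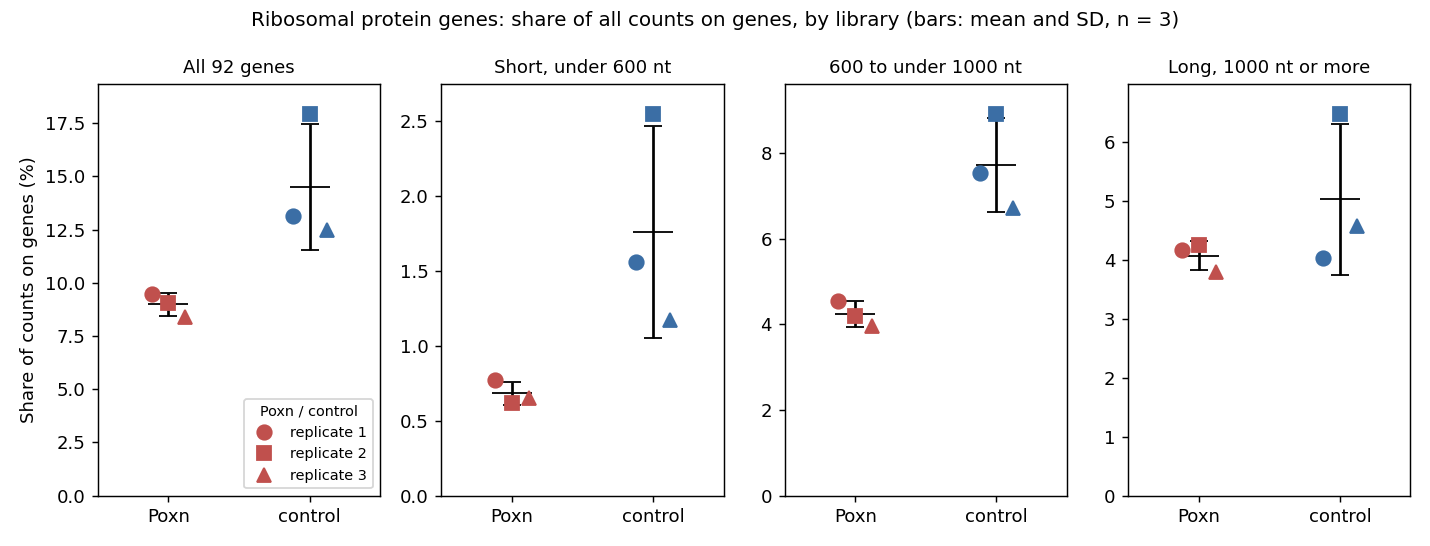
Share of all counts on genes (y axis, percent) held by ribosomal protein genes in each library, with Poxn left of control, for all 92 genes and for the 3 classes of transcript length. Points are libraries, with 1 symbol per replicate number, and bars are the mean and SD (n = 3); control 2 is highest in all 4 panels, and only for the long class does a control library fall among the Poxn libraries.

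Gene by gene, all 83 tested genes had a negative estimate (49.7% of all tested genes), and 17 of them were called lower in the Poxn-labelled wings. The test was the quasi-likelihood F-test of edgeR on the raw counts, and a gene was called at a Benjamini-Hochberg adjusted p under 0.05 over all 8973 genes tested. The log2 fold change, Poxn over control, ran from −5.27 to −0.93 with a median of −2.86, while the median over all tested genes was 0.01. The 17 genes called lower were 20.5% of the 83, against 4.95% of all tested genes. No gene was called higher, against 2.69% of all tested genes, and none had an unadjusted p under 0.05 in that direction in edgeR (14.1% of all tested genes) or DESeq2 (11.8%). At an unadjusted p under 0.05, 77 of the 83 were lower, against 17.8% of all tested genes. No gene met the study's own criterion, an adjusted p under 0.01 with a change beyond 4-fold, which 0.602% of all tested genes met in that direction. With DESeq2, the tool of the study, 80 of the 84 genes that received an adjusted p were called lower (14.9% of all genes), and 72 met that criterion (7.1% of all genes). With limma voom and quality weights 65 of 83 were called lower (8.54% of all tested genes), with RLE size factors 21 (6.2%) and with the replicate block 3 (3.93%).

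The size of these values depended on the scaling. With total counts in place of TMM the median over all tested genes moved to 1.39, and the calls over all genes shifted to 425 higher and 95 lower, against 241 higher and 444 lower with TMM. On that scale the median of the 83 genes was −0.84, which lies 2.24 below the median of all genes, 74 of the 83 were negative (11.7% of all tested genes) and 9 positive (88.3%), and 5 were called lower (1.06% of all tested genes), namely RpL37A, RpL39, RpL9, RpS24 and RpS29. With TMM 78 of the 83 genes had all 3 Poxn-labelled libraries below all 3 control-labelled ones (17.9% of all tested genes). With total counts it was 47 of the 83 (2.72% of all tested genes), and 1 gene, RpLP0, had them all above (57.8% of all tested genes).

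The number of calls also rested on which libraries were in the fit. Without control 3 it was 78 of 83 (11.9% of all tested genes) and without control 2 it was 44 (16.1%). Without control 1 it was 0 (1.86% of all tested genes), with 76 genes at an unadjusted p under 0.05 (16.1%). Without Poxn 1, 2 or 3 it was 0 each time (0.427%, 0.437% and 0.545% of all tested genes), with 46, 41 and 45 genes at an unadjusted p under 0.05 (11.5%, 10.5% and 11.2%). The median log2 fold change stayed between −3.28 and −2.27 in these 6 fits. The control-labelled libraries did not contribute alike. On the TMM scale the median gene of the family was 3.33 log2 units above the mean of the Poxn-labelled libraries in control 1, 2.93 in control 2 and 1.14 in control 3. On total counts the same medians were 0.45, 1.12 and 0.63.

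**Figure D2:**
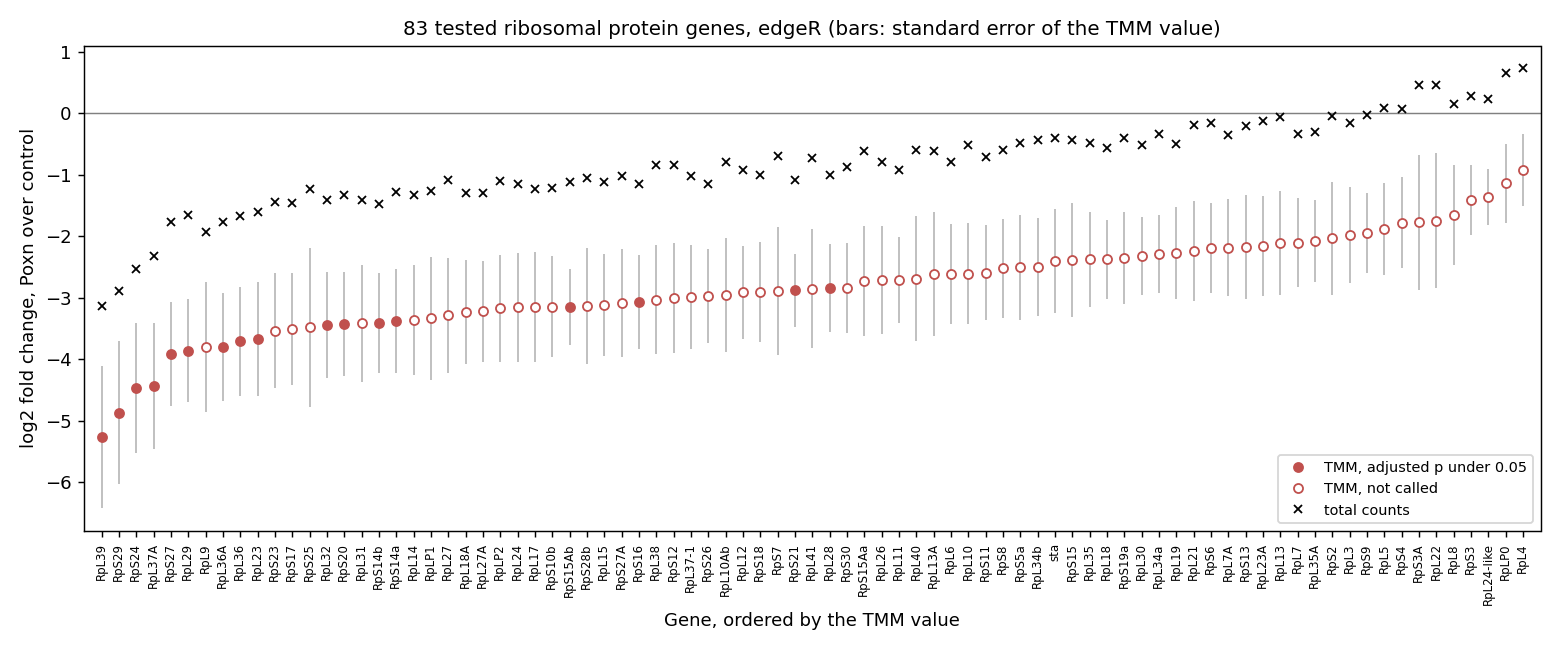
The log2 fold change of each of the 83 tested genes, Poxn over control (y axis), with genes along the x axis in the order of the value from TMM factors. Circles with standard errors are edgeR with TMM factors, filled for the 17 genes called lower, and crosses are edgeR with total counts; all circles are below 0, and 9 crosses at the right end are above it.

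The 5 genes with the lowest values encode small proteins, and all 5 were called. RpL39 (FBgn0023170; 2R, 24061853 to 24062431, reverse strand) encodes a protein that lines the exit tunnel for the nascent chain, and with 288 nt it has the shortest transcript of the tested genes. It had 3530, 3704 and 2983 counts in Poxn 1 to 3, against 20568, 37667 and 7961 in control 1 to 3. Every control-labelled library was above every Poxn-labelled one, although each Poxn-labelled library held more counts on all genes together than at least 2 of the 3 control-labelled ones. As total-count CPM, that is CPM with the uncorrected sum of counts on genes as library size, this was 222 ± 8.19 in the Poxn-labelled libraries and 1962 ± 1623 in the control-labelled ones (SD, n = 3 each). The log2 fold change of RpL39 was −5.27 with TMM (standard error, SE, 1.16; edgeR adjusted p = 0.0361), and −3.14 with total counts.

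RpS29 (FBgn0261599; 3R, 9778042 to 9779528, forward strand), a zinc-binding protein of the head of the small subunit, had 4812, 3911 and 4048 counts in Poxn 1 to 3, against 13045, 46915 and 7706 in control 1 to 3. Its log2 fold change was −4.87 (SE 1.16, edgeR adjusted p = 0.0424). Here control 2 was far above the other control-labelled libraries. RpS24 (FBgn0261596; 2R, 22640526 to 22641419, reverse strand), of the small subunit, showed the same, with 2151, 2333 and 1753 counts in Poxn 1 to 3, against 3936, 18428 and 3146 in control 1 to 3, and a log2 fold change of −4.47 (SE 1.06, edgeR adjusted p = 0.0422). RpL37A (FBgn0261608; 2L, 5070957 to 5072055, forward strand), a zinc-binding protein of the large subunit, had 4113, 3780 and 3667 counts in Poxn 1 to 3, against 13174, 23353 and 6562 in control 1 to 3, and a log2 fold change of −4.43 (SE 1.02, edgeR adjusted p = 0.0398).

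RpS27 (FBgn0039300; 3R, 25245955 to 25247514, reverse strand), a zinc-binding protein of the small subunit, was more even among the control-labelled libraries. It had 3230, 3520 and 3109 counts in Poxn 1 to 3, against 10690, 7866 and 8439 in control 1 to 3, and a log2 fold change of −3.92 (SE 0.84, edgeR adjusted p = 0.0346). For RpS27 the groups were thus well apart in the raw counts, and control 2 was the lowest control-labelled library.

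The other 12 called genes were RpL29, RpL36A, RpL36, RpL23, RpL32, RpS20, RpS14b, RpS14a, RpS15Ab, RpS16, RpS21 and RpL28. Their log2 fold changes ran from −3.86 for RpL29 to −2.85 for RpL28. RpL29, a small basic protein of the large subunit, and RpL36A, at the exit site for tRNA, have short transcripts of 389 and 514 nt. RpL29 had 2378, 2025 and 1894 counts in Poxn 1 to 3, against 7060, 4204 and 4778 in control 1 to 3. RpL36A had 5187, 4229 and 4262 counts in Poxn 1 to 3, against 9966, 17098 and 8192 in control 1 to 3. In both, the lowest control-labelled library was well above the highest Poxn-labelled one. The smallest adjusted p of the family, 0.0317, was that of RpS15Ab, a low-count copy of RpS15Aa with 765, 565 and 727 counts in Poxn 1 to 3, against 1230, 1028 and 1394 in control 1 to 3. Of the 17 called genes, 9 belong to the small and 8 to the large subunit, and their coding sequences ran from 153 to 453 nt.

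The 66 genes that were not called had log2 fold changes between −3.81 and −0.93 and adjusted p-values between 0.0501 and 0.316 in edgeR, of which 47 were under 0.1. Just outside the threshold stood RpS30 and RpS26, both at an adjusted p of 0.0501.

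At the other end stood genes of long coding sequences, whose estimates were lower with TMM and higher with total counts. RpL4 (FBgn0003279; 3R, 27922821 to 27924888, forward strand), whose long extension reaches into the exit tunnel, had 10898, 13718 and 10370 counts in Poxn 1 to 3, against 2012, 6962 and 7467 in control 1 to 3. Here the Poxn-labelled libraries were above all control-labelled ones in raw counts, although not as total-count CPM, where the means were 759 ± 80.9 in the Poxn-labelled libraries and 457 ± 274 in the control-labelled ones (SD, n = 3 each). Its log2 fold change was −0.93 with TMM (edgeR adjusted p = 0.316) and 0.73 with total counts. RpS3, which lies where mRNA enters the small subunit, had 11734, 11566 and 9073 counts in Poxn 1 to 3, against 3450, 7505 and 10366 in control 1 to 3, and log2 fold changes of −1.42 with TMM and 0.28 with total counts. RpL8, next to the site of peptide bond formation, had 46147, 59086 and 33474 counts in Poxn 1 to 3, against 18071, 40905 and 37175 in control 1 to 3, and log2 fold changes of −1.66 with TMM and 0.15 with total counts. In RpS3 and RpL8 the raw counts of the groups overlapped. None of these 3 genes passed the edgeR test on either scale. The other genes that were positive with total counts were RpLP0, RpL22, RpS3A, RpL24-like, RpL5 and RpS4, with log2 values between 0.07 and 0.66.

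The stalk of the large subunit, through which elongation factors are recruited, is built of RpLP0 at its base and of pairs of RpLP1 and RpLP2. The parts of this one structure had unequal values. RpLP1 had 26978, 25099 and 24253 counts in Poxn 1 to 3, against 47024, 56294 and 39728 in control 1 to 3. RpLP2 had 11637, 12197 and 14653 counts in Poxn 1 to 3, against 22429, 22425 and 21400 in control 1 to 3. Both had Poxn-labelled libraries well below control-labelled ones, with log2 fold changes of −3.34 for RpLP1 (edgeR adjusted p = 0.0665) and −3.17 for RpLP2 (edgeR adjusted p = 0.0565) on the TMM scale. RpLP0 (FBgn0000100; 3L, 22075867 to 22077487, forward strand) had 26630, 24607 and 19076 counts in Poxn 1 to 3, against 8271, 10362 and 17592 in control 1 to 3. It was thus higher in every Poxn-labelled library in raw counts and as total-count CPM, with log2 fold changes of −1.14 with TMM (SE 0.64) and 0.66 with total counts. None of the stalk genes was called on either scale (adjusted p between 0.0565 and 0.363 from edgeR). Coding sequences are 336 nt in RpLP1, 339 nt in RpLP2 and 951 nt in RpLP0.

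The ubiquitin fusion genes encode ubiquitin joined to a ribosomal protein, which is released from it after translation. RpL40, the fusion of the large subunit, had 58377, 59508 and 41720 counts in Poxn 1 to 3, against 77653, 42318 and 78029 in control 1 to 3. RpS27A, the fusion of the small subunit, had 14211, 10890 and 12774 counts in Poxn 1 to 3, against 20372, 22251 and 17898 in control 1 to 3. The raw counts overlapped for RpL40, where control 2 was low, and not for RpS27A. Their log2 fold changes were −2.69 (adjusted p = 0.112) and −3.09 (adjusted p = 0.0592) in edgeR with TMM, and −0.60 and −1.02 with total counts.

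The gene sta (stubarista) encodes the small-subunit protein whose mammalian counterpart is known as the laminin receptor. It had 17269, 32362 and 25641 counts in Poxn 1 to 3, against 25080, 24900 and 29635 in control 1 to 3. The groups overlapped, and its log2 fold change was −2.41 with TMM (edgeR adjusted p = 0.095) and −0.40 with total counts. Rack1, a scaffold protein bound to the small subunit that the symbol rule leaves out, had 6243, 5930 and 6158 counts in Poxn 1 to 3, against 2040, 10175 and 5582 in control 1 to 3, with a log2 fold change of −2.13 (edgeR adjusted p = 0.092).

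Levels of different genes were compared per kilobase of longest transcript, as total-count CPM per kilobase. RpS25, a small-subunit protein near the exit site, was the highest in both groups, with 5726 in the Poxn-labelled libraries and 13435 in the control-labelled ones. RpL41, which encodes the smallest ribosomal protein and bridges the subunits, came next, with 5547 in the Poxn-labelled libraries and 9165 in the control-labelled ones. RpL40 followed in both groups, with 5233 in the Poxn-labelled libraries and 7926 in the control-labelled ones. After these the orders differed. RpL39 had 770 in the Poxn-labelled libraries, where RpS3A and RpS15 came next, and 6813 in the control-labelled ones, where it came next. RpL13A, of the surface of the large subunit, had 4155 in the Poxn-labelled libraries and 6385 in the control-labelled ones. At the low end of both groups stood the copies RpS15Ab, with 62.2 in the Poxn-labelled libraries and 136 in the control-labelled ones, and RpL34a, with 167 in the Poxn-labelled libraries and 212 in the control-labelled ones. Since SDs among the control-labelled libraries were often a large part of the mean, neighbours in these orders were not told apart.

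The balance of the subunits differed by less than the spread between replicates. The log2 ratio of all small-subunit counts to all large-subunit counts was −0.083, −0.104 and −0.157 in Poxn 1 to 3, against 0.0904, −0.534 and −0.139 in control 1 to 3. The control-labelled libraries enclosed the Poxn-labelled ones, and the means differed by 0.0798, with a pooled SD of 0.225. With TMM the median log2 fold change was −2.90 over 34 small-subunit genes and −2.72 over 49 large-subunit genes.

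Transcript length ordered the genes within the family, and other genes of the wing showed a trend of the same direction. The median log2 fold change with TMM was −3.47 over the 12 tested genes under 600 nt, −2.90 over the 40 genes of 600 nt to under 1000 nt and −2.27 over the 31 genes of 1000 nt or more. Over the genes outside the family the medians were −1.84 (353 genes), −0.96 (991 genes) and 0.17 (7424 genes) in the same classes. In each class the median of the ribosomal protein genes was the lower one. The long class is open at the top, and its median transcript is 1186 nt in the family and 2374.5 nt in the other genes. Between 1000 and 1500 nt the median log2 fold change was −2.34 over 28 genes of the family and −0.25 over 1472 others, with median transcripts of 1175 and 1249.5 nt. Calls followed the classes, with 7 of 12 short, 9 of 40 intermediate and 1 of 31 long genes called lower, against 110 of 353, 133 of 991 and 183 of 7424 of the genes outside the family. Spearman's rho of log2 fold change and longest transcript was 0.549 across the 83 genes and 0.286 across 8768 others, and with coding length it was 0.705 across the 83 genes and 0.323 across 8658 others. These correlations are across genes measured in the same libraries, which are not independent replicates.

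The same order stood within single libraries, where no scaling factor enters. The median log2 count (0.5 added to each count) of short genes minus that of long genes was −1.05, −1.27 and −1.04 in Poxn 1 to 3, against 0.178, 0.128 and −0.376 in control 1 to 3. The groups did not overlap. Among genes outside the family the same difference was −0.63, −0.949 and −0.711 in Poxn 1 to 3, against 2.06, 0.676 and 0.844 in control 1 to 3, a gap between the genotypes of 1.96 in the mean, against 1.10 in the family.

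Not every gene followed its length class. RpL41, with 320 nt the second shortest tested transcript, had 35486, 28054 and 18888 counts in Poxn 1 to 3, against 45001, 26059 and 39005 in control 1 to 3. Its groups overlapped in raw counts, and its log2 fold change of −2.86 (edgeR adjusted p = 0.0874) was the median of the family. RpS29, the only long gene called, has a longest transcript of 1007 nt but a coding sequence of 168 nt and a shortest transcript of 502 nt. The long genes RpS26 and RpS10b, with longest transcripts of 1812 and 1469 nt and coding sequences of 342 and 480 nt, had log2 fold changes of −2.97 and −3.15. The long genes RpL3, which reaches toward the site of peptide bond formation, and RpL5, which carries 5S ribosomal RNA and has the longest transcript, 3835 nt, have coding sequences of 1248 and 897 nt and had log2 fold changes of −1.98 and −1.88. Sorted by coding length, the 27 shortest genes (up to 405 nt) had a median of −3.29 and the 27 longest (from 573 nt) a median of −2.11.

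When a smooth trend of counts with transcript length was taken out of each library before the test (length offsets), the family stayed low. The trend was fitted to the tested genes of these same libraries, the family included. A weaker rise with length was therefore built into this fit. The median of the 83 genes was −2.11, against −0.08 over all tested genes, all 83 estimates were negative (54% of all tested genes), and no gene was called (1.82% of all tested genes), although 54 had an unadjusted p under 0.05 (15.4% of all tested genes). The medians were then −1.99 for short, −2.03 for intermediate and −2.35 for long genes, so that long genes were the lowest. Spearman's rho with the longest transcript became −0.324 across the 83 genes, and with coding length it was 0.147.

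**Figure D3:**
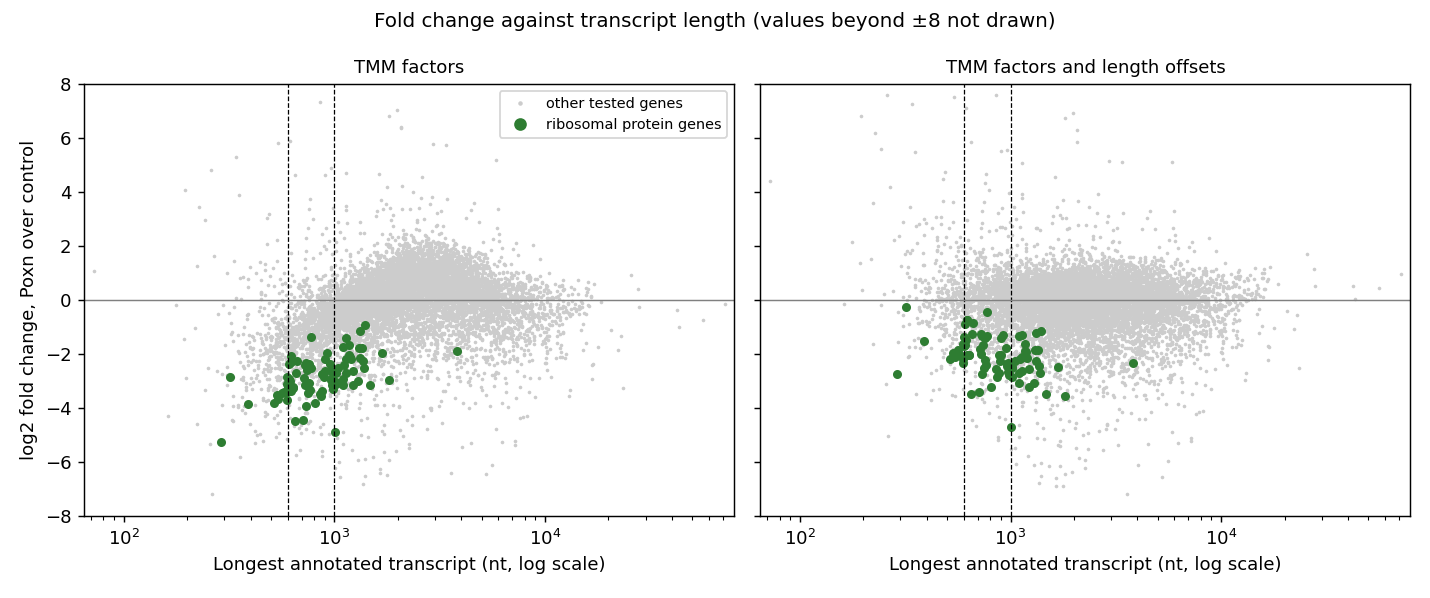
The log2 fold change, Poxn over control (y axis), against the longest annotated transcript (x axis, nt, log scale) for the 83 ribosomal protein genes (green) and the other tested genes (grey), with TMM factors on the left and with length offsets added on the right. Dashed lines mark 600 and 1000 nt; on the left the green points rise with length and lie in the lower part of the grey cloud, and on the right they stay below 0 without that rise.

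Within the ribosomal protein counts, the make-up was alike among Poxn-labelled libraries and varied among control-labelled ones. Across the 83 genes, Pearson's r of the log2 share of each gene was between 0.971 and 0.984 for pairs of Poxn-labelled libraries, and 0.667, 0.883 and 0.636 for the control pairs 1 and 2, 1 and 3, and 2 and 3. Control 3 was close to the Poxn-labelled libraries (r between 0.930 and 0.949), control 1 less so (0.755 to 0.801) and control 2 least (0.573 to 0.581). As total-count CPM, the highest library was more than 2-fold above the lowest for 49 of the 83 genes in the control-labelled group and for 0 in the Poxn-labelled group.

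Relative to the sum of the family, a value in which the scaling factor cancels, 18 genes had every Poxn-labelled library below every control-labelled one (1.35% of all tested genes) and 12 had every one above (73% of all tested genes). The 18 comprised 8 short, 8 intermediate and 2 long genes, with a median coding length of 340.5 nt, and included RpL39, RpS29, RpL37A, RpS24, RpS27, RpL29 and RpLP1. The 12 comprised 1 intermediate and 11 long genes, with a median coding length of 802.5 nt, and included RpL22, RpL4, RpLP0, RpS3A, RpS3 and RpL8. RpL4, for example, made up 0.726%, 0.934% and 0.880% of the ribosomal protein counts in Poxn 1 to 3, against 0.119%, 0.385% and 0.419% in control 1 to 3. RpL39 made up 0.235%, 0.252% and 0.253% in Poxn 1 to 3, against 1.21%, 2.09% and 0.447% in control 1 to 3. These genes were picked by their values, so their lengths are a description only.

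Control 2 stood apart in single genes. Its share of the family was more than 4-fold above the mean of the other control-labelled libraries for 3 genes, RpS24, RpL9 and RpS29, and more than 4-fold below for 2, RpL22 and RpL13. RpL22 (FBgn0015288; X, 762560 to 765130, reverse strand), an RNA-binding protein of the large subunit, had 12956, 10892 and 12871 counts in Poxn 1 to 3, against 11889, 531 and 11081 in control 1 to 3. The low value of control 2 is the lowest count of any tested gene of the family in any library. RpL9, singled out after its values were seen, stood at 7834, 10821 and 6883 counts in Poxn 1 to 3, against 8857, 48528 and 11809 in control 1 to 3. Its groups overlapped in raw counts, because control 1 was below Poxn 2. As CPM with TMM they did not overlap, with 282, 360 and 264 in Poxn 1 to 3, against 2785, 9238 and 648 in control 1 to 3. RpL13, singled out likewise, stood at 18880, 17101 and 16659 counts in Poxn 1 to 3, against 18747, 5264 and 23145 in control 1 to 3. The log2 fold change of RpL22 was −1.75 with TMM (SE 1.10, edgeR adjusted p = 0.311) and 0.46 with total counts.

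**Figure D4:**
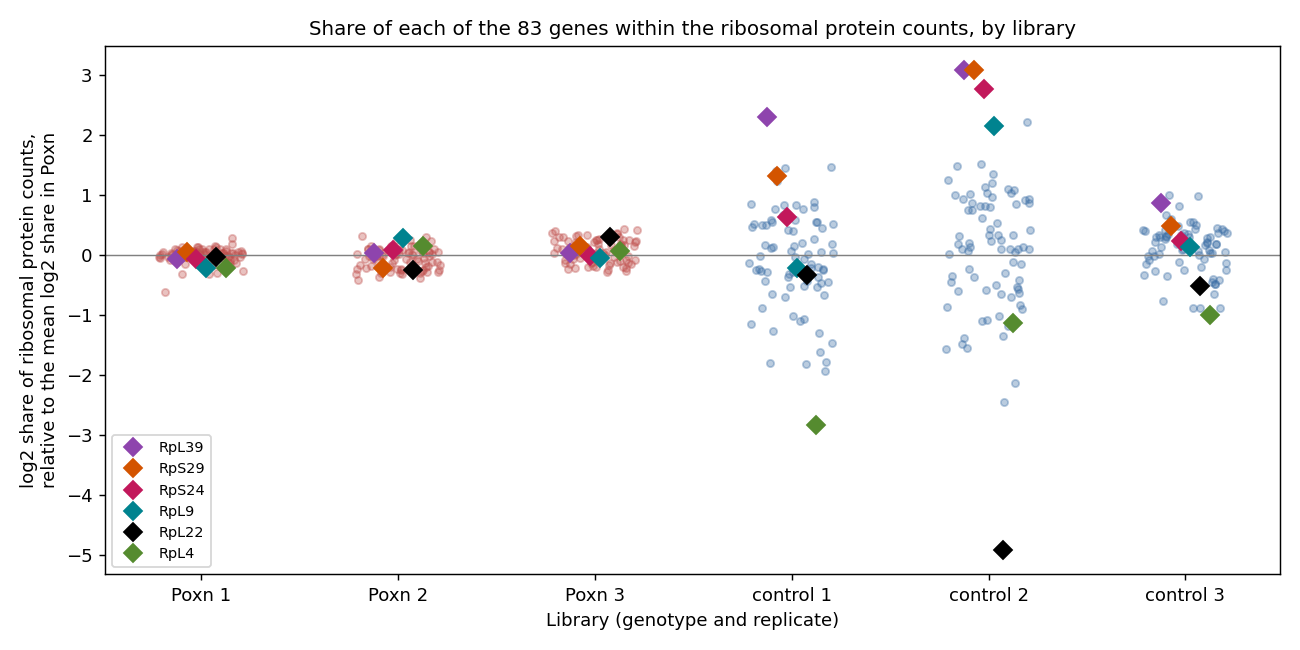
Share of each of the 83 genes in the ribosomal protein counts of a library, as log2 relative to its mean log2 share in the Poxn libraries (y axis), for each library (x axis, Poxn libraries at the left). Each point is a gene, and 6 genes are marked by coloured diamonds; points lie close to 0 in the Poxn libraries and spread most in control 2, where RpL22 is lowest and RpL39 and RpS29 are highest.

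Several ribosomal proteins are encoded by a pair of genes, and the second copy contributed little in most pairs. Of the 9 untested genes, RpL7-like had 0 counts in every library, and RpS10a, RpL37-2, RpL22-like, RpS5b, RpL10Aa, RpS19b, RpS28a and RpS28-like had between 0 and 11. RpS5b, with 0, 11 and 4 counts in Poxn 1 to 3, against 3, 3 and 7 in control 1 to 3, was the highest of them, and its share of the pair with RpS5a averaged 0.0234% ± 0.0255 in the Poxn-labelled libraries and 0.0200% ± 0.0130 in the control-labelled ones (SD, n = 3 each). RpS5b, RpL22-like and RpS19b are known in Drosophila for expression in the germ line, and of 5 germ line markers vas, bam, osk and aub were each at 0 counts in at least 1 library, while nanos had 20, 31 and 35 counts in Poxn 1 to 3, against 2, 24 and 19 in control 1 to 3. For RpL7-like, 0 counts allow a share of up to 0.0202%, 0.0204% and 0.0279% of the pair in Poxn 1 to 3 and up to 0.0507%, 0.0161% and 0.0209% in control 1 to 3, limits that cover counting error only. For the main copies RpL7, RpL10Ab, RpS5a, RpS10b, RpS19a, RpS28b and RpL37-1 the log2 fold changes ran between −3.15 and −2.11 with TMM, and none was called.

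In 4 pairs both copies were expressed. RpS14b lies next to RpS14a on the X chromosome (RpS14a, 7933742 to 7934677, and RpS14b, 7934898 to 7935792, both forward strand) and both have a coding sequence of 453 nt. RpS14b held 26.2% ± 0.885 of the pair in the Poxn-labelled libraries and 26.0% ± 9.26 in the control-labelled ones (SD, n = 3 each). RpL34a held 17.5% ± 1.29 of its pair with RpL34b in the Poxn-labelled libraries and 16.6% ± 1.82 in the control-labelled ones, and RpS15Ab 4.04% ± 0.439 of its pair with RpS15Aa in the Poxn-labelled libraries and 6.14% ± 2.12 in the control-labelled ones. None of these shares differed by more than 1 SD of the control-labelled libraries. Both copies had similar log2 fold changes with TMM, −3.38 and −3.42 for RpS14a and RpS14b, −2.51 and −2.29 for RpL34b and RpL34a, and −2.73 and −3.15 for RpS15Aa and RpS15Ab. Because copies close in sequence can share reads, these shares are uncertain.

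RpL24-like, by contrast, differed from RpL24 in its value. It is the fly counterpart of yeast Rlp24, a factor that holds the place of Rpl24 on the large subunit while it is assembled. RpL24-like had 5576, 4924 and 3514 counts in Poxn 1 to 3, against 1613, 2359 and 5958 in control 1 to 3, and RpL24 had 13432, 10333 and 11784 in Poxn 1 to 3, against 16414, 28316 and 15860 in control 1 to 3. The share of RpL24-like in the sum of both was 29.3%, 32.3% and 23.0% in Poxn 1 to 3, against 8.95%, 7.69% and 27.3% in control 1 to 3, so that control 3 fell among the Poxn-labelled libraries. The log2 fold changes were −1.36 for RpL24-like (SE 0.45, edgeR adjusted p = 0.0838) and −3.16 for RpL24 (SE 0.88, edgeR adjusted p = 0.0585). RpLP0-like, a relative of RpLP0 that the symbol rule leaves out, made up 1.36% ± 0.321 of the sum with RpLP0 in the Poxn-labelled libraries and 1.10% ± 0.701 in the control-labelled ones.

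Whether the counting used the strand of the reads is not stated, so counts of genes that overlap another gene are uncertain. Exons of 29 of the 83 tested genes, 8 of the 17 called among them, overlap an exon of another annotated gene. RpL39 and RpL12 overlap each other at their ends on opposite strands, and RpS29 and RpL37A each overlap an antisense RNA.

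Other lists of translation genes had medians nearer to 0 than the family, a difference that was not tested. Proteins of the mitochondrial ribosome are encoded in the nucleus and work in a separate ribosome. Of 72 tested, 16 were called lower (4.95% of all tested genes) and 0 higher (2.69%), 61 were negative (49.7%), and the median log2 fold change was −1.02 with TMM, 0.35 with total counts and −0.01 with length offsets. Their median longest transcript is 786.5 nt, against 877 nt for the cytosolic genes. The lowest of them was mRpL34, a protein of the large mitochondrial subunit with a transcript of 327 nt, which had 71, 81 and 41 counts in Poxn 1 to 3, against 224, 341 and 242 in control 1 to 3 (log2 fold change −4.43, adjusted p = 0.0153 from edgeR).

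None of the 65 tested genes of the other translation lists was called in either direction (4.95% lower and 2.69% higher of all tested genes). Of the 9 names of the elongation list, 6 were found among the genes counted. The names eEF1alpha1, eEF3 and eEF5 were not found there and were not examined. Median longest transcripts were 1670.5 nt for elongation, 1651 nt for initiation, 1895 nt for biogenesis and 2872 nt for regulators, against 877 nt for the family. The median log2 fold change with TMM was −0.58 over the 6 genes of the elongation list, −0.38 over 27 initiation factors and 0.55 over 19 ribosome biogenesis genes. It was −0.44 over the 13 genes of the regulator list, among them the Tor pathway genes mTor, raptor, S6k, Thor and larp. Tctp, counted in the elongation list but not an elongation factor, had its lowest value, −1.32. Without Tctp the middle value there is that of eEF2, 0.02. The regulator list also counts Rack1 (−2.13) and RpLP0-like (−0.57), which are not regulators. Without both, its middle value is that of mTor, 0.07. Numbers at an unadjusted p under 0.05 were 1 higher and 0 lower, 0 higher and 6 lower, 6 higher and 2 lower, and 1 higher and 4 lower in these lists (14.1% higher and 17.8% lower of all tested genes). Rack1 was among the 4 lower genes of the regulator list. DESeq2 called 1 elongation factor, 3 biogenesis genes and 1 regulator higher (6.56% of all genes). It called 5 initiation factors and 3 genes of the regulator list, Rack1 among them, lower (14.9%). The elongation factor eEF2, singled out after its values were seen, stood at 48867, 77590 and 50616 counts in Poxn 1 to 3, against 5148, 20835 and 11113 in control 1 to 3, and a log2 fold change of 0.02 with TMM and 1.83 with total counts. With length offsets, which moved the family to −2.11, the medians of these lists were −0.50, −0.57, 0.22 and 0.18.

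**Figure D5:**
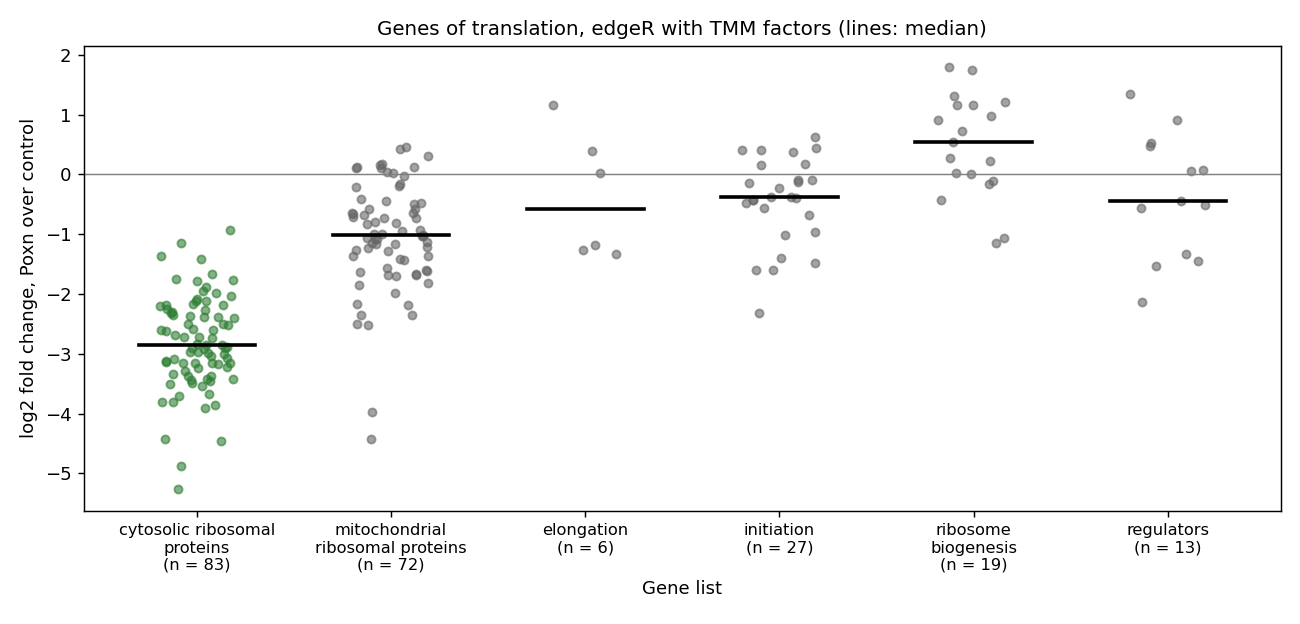
The log2 fold change, Poxn over control, with TMM factors (y axis) for the tested genes of the family (green) and of the mitochondrial ribosomal protein, elongation, initiation, ribosome biogenesis and regulator lists (grey, x axis). Each point is a gene and lines are medians; all 83 points of the family are below 0, with a median of −2.86, and the other medians lie between −1.02 and 0.55.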

How the data were processed

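Wings were represented by 3 libraries for each of 2 genotypes, grouped by their labels. For alignment to FlyBase r6.09 the authors used STAR 2.4.2a, after trimming by Trim Galore 0.4.0, and they deposited raw counts per gene, not normalized. HTSeq is named in the submitters' processing notes, and its strand setting is not given in the sources used here. Lines that name no gene held between 57.2% and 57.4% of a library's sum in the Poxn-labelled libraries and between 61.7% and 65.9% in the control-labelled ones, and were left out. The line for reads on no annotated feature held 49.2%, 49.3% and 49.2% in Poxn 1 to 3, against 48.5%, 58.6% and 47.9% in control 1 to 3. The line for reads without a unique alignment held 6.60%, 6.82% and 6.81% in Poxn 1 to 3, against 12.2%, 5.76% and 12.1% in control 1 to 3. The bearing of these differences on single genes was not tested. The authors' comparison table, which holds fold changes and p-values, and its 6 per-library columns were not used.

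Symbols, positions and transcript lengths came from Ensembl 115 (BDGP 6.54, release 6 assembly), which matched 17229 of 17476 identifiers, among them 87 of the 92 family genes. RpL19, RpL31, RpS12, RpS10b and RpL27A carry retired identifiers and took their symbols from the study's supplementary table and their lengths from the current entry of that symbol.

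edgeR 4.0.16 (R 4.3.3) was run with filterByExpr (minimum count 10), TMM and a prior count of 0.125, without the replicate block, and an SE is the log2 fold change over the root of F. For classes of length within a library, medians of log2 counts were taken, with 0.5 added to each count. Alternatives were RLE size factors, total counts, TMM without the family, length offsets (lowess span 0.3), DESeq2 1.42.0, limma voom 3.58.1, no filter, a prior count of 2, leaving out the 50 most abundant other genes, the block, other length classes (500 and 900 nt, shortest transcript) and each library left out. Coding length, leaving out the 5 genes with retired identifiers, scaling to the family's sum, the class of 1000 to 1500 nt and the sensory genes were chosen after seeing the data. On simulated counts for 8973 genes, drawn with a dispersion of 0.05 where the common dispersion of these libraries was 0.218, edgeR recovered 95 of 100 genes changed by a log2 of 2 and 99 of 100 changed by 3 with 11 false calls. Exact binomial limits and the floor of 3 counts cover counting error only. The family, the gene lists and the tests were chosen with earlier results of these data known. Named genes were the 5 highest and 5 lowest by log2 fold change, the 5 shortest and 5 longest, the 5 highest per kilobase by CPM, the stalk and ubiquitin fusion genes, sta, Rack1 and all genes of paralog pairs. One gene that this rule names is not reported here.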

Additional observations from a re-analysis of the deposited data

How the results depend on the processing

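All 83 tested genes kept a negative log2 fold change with RLE size factors, TMM without the family, length offsets, DESeq2, limma voom, a prior count of 2, the 50 most abundant other genes left out and the replicate block. With total counts 9 turned positive, among the named genes RpL5 (0.080), RpL22 (0.46), RpL8 (0.15), RpS3 (0.28), RpL24-like (0.23), RpLP0 (0.66) and RpL4 (0.73), and the median was −0.84. Scaled to the family's own sum, a choice made after seeing the data, 17 of the 39 named tested genes were positive and 22 negative. This scaling centres the family, so values on both sides of 0 follow from it. None of the called ones was positive, which was largely fixed in advance, because they were called for low values in these same data. RpL22 ranged from −2.29 without control 2 to 0.32 without control 1. The number called lower, 17 with TMM, was 5 with total counts, 0 with length offsets (54 at an unadjusted p under 0.05), 80 with DESeq2, 65 with limma voom, 0 at the criterion of the study and between 0 and 78 with 1 library left out (0 without Poxn 1, 2 or 3 or control 1, 44 without control 2 and 78 without control 3). With RLE it was 21 (6.2% of all tested genes), and all 17 genes were among them. Deviations from the group means correlated at 0.123, 0.142 and −0.068 between same-numbered libraries. Between libraries of different numbers the correlations ran from −0.227 to 0.112. With 3 libraries per genotype these values cannot decide whether the replicate numbers pair the libraries. With the replicate block 3 genes were called lower (3.93% of all tested genes). The short genes minus the long genes gave −1.20 in the median log2 fold change, between −1.38 and −0.98 with 1 library left out, −1.18 by coding length and 0.35 with length offsets. The difference in share, Poxn minus control, was −5.52 percentage points, −16.3 without the 50 most abundant other genes, and between −6.53 and −3.81 with 1 library left out. The small over large subunit difference ranged from −0.0899 without control 2 to 0.222 without control 1. The cause of these shifts was not tested. Each tested gene had at least 531 counts in every library, and TMM factors ran from 0.246 to 1.86.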

Other observations

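Some genes of the family are known for roles outside the ribosome or in its control, and their values, looked at after the tests were run, are given here as a description. RpL5 and RpL11 carry 5S ribosomal RNA into the large subunit as 1 particle. RpL11 had 3737, 3868 and 3142 counts in Poxn 1 to 3, against 2187, 8181 and 5046 in control 1 to 3, and RpL5 had 18081, 15766 and 13113 in Poxn 1 to 3, against 8986, 14416 and 10911 in control 1 to 3. The groups overlapped in raw counts for both genes, and the control-labelled libraries of RpL11 enclosed the Poxn-labelled ones. Log2 fold changes with TMM were −2.72 for RpL11 (edgeR adjusted p = 0.0513) and −1.88 for RpL5 (edgeR adjusted p = 0.127).

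RpS6, the small-subunit protein that S6 kinase phosphorylates downstream of Tor, was nearly even in raw counts, with 8612, 7568 and 10010 in Poxn 1 to 3, against 7756, 7687 and 8015 in control 1 to 3. Its log2 fold change was −2.20 with TMM (edgeR adjusted p = 0.0854) and −0.16 with total counts. RpS12, which in Drosophila is needed for cells with 1 copy of a ribosomal protein gene to be recognised and outcompeted, had 13189, 10827 and 12841 counts in Poxn 1 to 3, against 22059, 14823 and 16713 in control 1 to 3. Its groups did not overlap, and its log2 fold change was −3.01 with TMM (edgeR adjusted p = 0.0649) and −0.84 with total counts. Xrp1, the transcription factor that acts downstream of RpS12 in that response, had 10064, 14325 and 8728 counts in Poxn 1 to 3, against 1004, 5012 and 5950 in control 1 to 3, with a log2 fold change of −0.44 with TMM (edgeR adjusted p = 0.644) and 1.11 with total counts.

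RpS3A, on chromosome 4, had the highest counts of the family in the Poxn-labelled libraries, 120788, 108467 and 78969 in Poxn 1 to 3, against 92265, 24383 and 70856 in control 1 to 3. RpS25, on 3R, had the highest counts in control 1 and control 3, with 84683, 78694 and 61457 in Poxn 1 to 3, against 214536, 75201 and 145724 in control 1 to 3. In both genes control 2 was the lowest control-labelled library, and neither was called (edgeR adjusted p = 0.303 for RpS3A and 0.107 for RpS25).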
